A study of Mus musculus with 15 samples.

Results

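The genes described here are 44 named components of the bone morphogenetic protein (BMP) and transforming growth factor-beta (TGF-beta) pathways, out of 23393 named genes in a table of read counts. They comprise 13 ligands, 8 extracellular antagonists or modulators, 3 latent TGF-beta binding proteins, 9 receptors, the 4 Id genes, 5 Smad genes and 2 Smurf genes. Smad2, Smad4 and Smad7 are not analysed here. RNA was sequenced from neural progenitors derived from mouse embryonic stem cells of the 129/Ola strain. All cells spent 2 days in suspension culture, received 500 nM all-trans retinoic acid and were given doxycycline at 1 ug/ml for 12 hours to switch on a transgene. The single-factor lines carried TRE_Nkx2.2, TRE_Nkx6.1 or TRE_Olig2, and the 2-factor lines carried TRE_Nkx6.1-P2A-Nkx2.2 or TRE_Nkx6.1-P2A-Olig2, with 2 libraries per line. TRE is the doxycycline-responsive promoter, and the P2A peptide lets a single transcript give separate proteins. The control was the parental mA2.lox.Cre line, which carries TRE_Cre and received the same doxycycline, with 5 libraries. The labels give 1 line per transgene and do not say how many clones stand behind it, nor whether each library came from its own culture. The p-values therefore measure the spread between these libraries, and that spread may be technical.

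BMP and TGF-beta family ligands are secreted proteins that bind pairs of type I and type II receptor kinases, which phosphorylate Smad proteins that move to the nucleus with Smad4. Smad1, Smad5 and Smad9 serve the BMP branch, Smad2 and Smad3 serve the TGF-beta and activin branch, and the Id genes are classic direct targets of the BMP branch. In the developing spinal cord, BMP ligands from the roof plate and the overlying ectoderm pattern dorsal cell types, and secreted antagonists limit their range. Nkx2.2, Nkx6.1 and Olig2 are transcription factors of ventral progenitors, and the comparison with the control asks which genes each of them changes.

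Library totals lay between 12282038 and 19426544 counts, and each control library had a larger total than any library of the 5 lines. Each transgene's own gene was high in its lines (for example, Nkx2-2 averaged 477 ± 40.4 CPM in the Nkx2.2 line and 0.671 ± 0.484 CPM in the control, SD, n = 2 and 5), where CPM is the usual counts-per-million unit, on library sizes scaled by the trimmed mean of M-values (TMM). The neural progenitor markers Sox1, Sox2, Nes, Pax6 and Sox3 summed to 271 to 647 CPM over the transgenic libraries and to 439 to 609 CPM in the controls. The sums of the Nkx2.2 line (271 to 425 CPM) and the Nkx6.1 line (306 to 383 CPM) lay below every control, and the other lines overlapped the controls. The cells also held transcripts of other types: in the controls, 5 endoderm markers summed to 237 to 575 CPM and 5 pluripotency markers to 163 to 341 CPM. No marker of the 8 lists examined was at 0 in any group. In these bulk samples, fewer cells of a type and less RNA per cell cannot be told apart.

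In the controls, the most abundant members per length were transcripts of BMP targets, receptors and secreted modulators, and the ligands were lower. Dividing CPM by the length of annotated exons in kilobases, Id3 stood at 122 ± 9.14, Id1 at 90.6 ± 6.12 and Id2 at 56.0 ± 4.14 CPM per kb (SD, n = 5). Next came the secreted BMP modulator Twsg1 (44.3 ± 3.35 CPM per kb), the type I BMP receptor Bmpr1a (40.7 ± 2.22 CPM per kb), the secreted glycoprotein Fstl1 (35.5 ± 1.39 CPM per kb) and the type I TGF-beta receptor Tgfbr1 (34.6 ± 3.27 CPM per kb). Neighbours in this order such as Twsg1 and Bmpr1a, or Fstl1 and Tgfbr1, were separated by about their spread or less. Bmp7, at 8.93 ± 0.689 CPM per kb, was the highest ligand and rank 15 of the 44. Id4, at 0.943 ± 0.179 CPM per kb, was far below the other Id genes, and Smad9, at 0.797 ± 0.176 CPM per kb, was the lowest Smad measured.

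**Figure D1:**
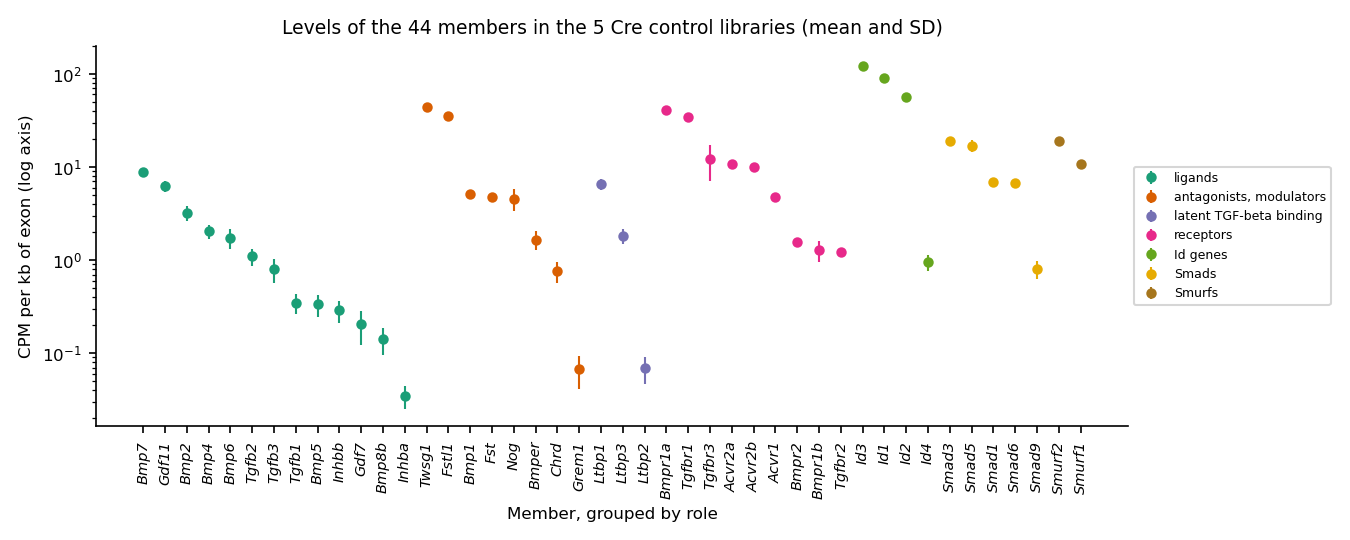
Mean level of each of the 44 members in the 5 control libraries, in CPM per kilobase of exon on a log axis, with SD bars, grouped by role (x axis). Id3 is highest at 122 CPM per kb, Bmp7 leads the ligands at 8.93, and Inhba is lowest at 0.035.

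Tests used edgeR's quasi-likelihood model on the counts of all 15 libraries, with Benjamini-Hochberg adjustment over the 13982 genes that had at least 1 CPM in at least 2 libraries. A gene is called when its adjusted p in this fit is under 0.05, calls of another fit are given with its name, and "rose", "fell" and "changed" are used of called genes only. Of the 44 members, 40 passed the filter. The 4 that did not were the ligands Bmp8b, Gdf7 and Inhba and the antagonist Grem1, each at a control mean of 0.549, 0.291, 0.224 and 0.280 CPM. Ltbp2 passed through transgenic libraries only: 6 of them, and 0 of the 5 controls, reached 1 CPM.

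Few pathway genes were called in any line: 6 in each 2-factor line and 1 or 2 in each single-factor line. Over all tested genes, too, more were called in the 2-factor lines. By the number that opens each library's description, the 2-factor lines are of a 23 series and the single-factor lines of a 21 series. The controls have both, and these fits had no series term. With 1, 202 and 187 genes were called in the 2-factor lines (399 and 397 without it) and 56, 56 and 218 in the Nkx2.2, Nkx6.1 and Olig2 lines (101, 103 and 260). In each 2-factor line 4 of the 6 member calls were then left. In the Nkx2.2 line 0 of the 40 fell, where 0.451% of all tested genes did, and 2 rose (Chrd and Bmp7), where 0.272% of all tested genes did. In the Nkx6.1 line 1 fell (Fst; all genes 0.565%) and 0 rose (all genes 0.172%). In the Olig2 line 0 fell (all genes 0.443%) and 1 rose (Ltbp2; all genes 1.42%). These 2 shares rest largely on chromosomes 18 and Y: without their genes 21 were called in the Olig2 line, in place of 260. Ltbp2 was among the 21. In Nkx6.1-P2A-Nkx2.2 cells 5 fell (Bmp2, Fst, Id1, Id2 and Smad9; all genes 1.76%) and 1 rose (Bmp7; all genes 1.09%). In Nkx6.1-P2A-Olig2 cells 5 fell (Bmp2, Fst, Id2, Id3 and Smad9; all genes 1.82%) and 1 rose (Bmp7; all genes 1.02%). In all, 9 members were called in at least 1 line. The 5 comparisons share the same controls, so the lines are not independent of each other.

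Where 0 members were called in a direction by edgeR, the same direction was also counted by other criteria. In the Nkx2.2 line 5 members were lower at an unadjusted p under 0.05 (all genes 4.75%), and DESeq2 called 2 of them, Id2 and Smad9 (all genes 1.01%). In the Nkx6.1 line 3 were higher at an unadjusted p under 0.05 (all genes 7.67%), and DESeq2 called 0 (all genes 1.02%). In the Olig2 line 3 were lower at an unadjusted p under 0.05 (all genes 6.12%), and DESeq2 called 0 (all genes 1.13%).

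The median log2 fold change of the 40 members was -0.02 for Nkx2.2, -0.17 for Nkx6.1, 0.02 for Olig2, -0.06 for Nkx6.1-P2A-Nkx2.2 and -0.16 for Nkx6.1-P2A-Olig2, and that of all tested genes lay within 0.01 of 0. The called sets rest partly on single libraries. Without replicate 1 or replicate 2 of a 2-factor line fewer members were called in that line, and fewer of all tested genes too. Without control replicate 2 or 4, 3 of the 6 member calls in Nkx6.1-P2A-Olig2 cells were left. Of all tested genes 257 and 233 were then called there, in place of 397. Control replicate 5 had the highest Tgfbr3 level (136.9 CPM, against 59.0 to 74.0 CPM in the other controls). Without it, 2 members were called in the Nkx2.2 line, 1 in the Nkx6.1 line (Id3 in place of Fst), 2 in the Olig2 line (Id4 and Ltbp2), 8 in Nkx6.1-P2A-Nkx2.2 cells (Id3 and Ltbp1 in addition) and 6 in Nkx6.1-P2A-Olig2 cells (Acvr2a in place of Id2). Of all tested genes 151, 168, 444, 531 and 550 were then called in the same order, in place of 101, 103, 260, 399 and 397.

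**Figure D2:**
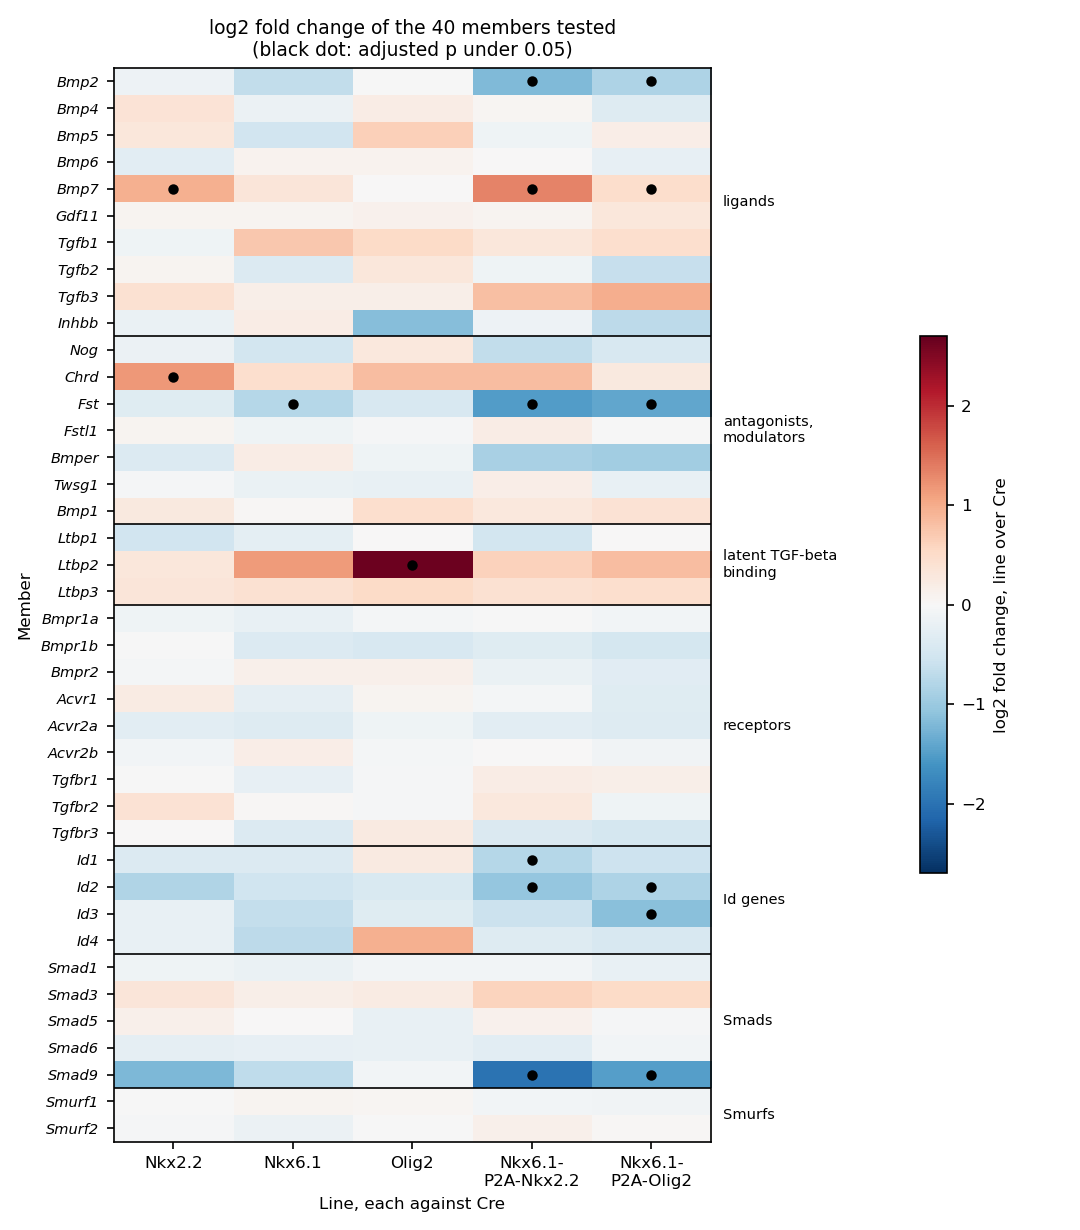
Heat map of the log2 fold change of each line over the Cre control (columns) for the 40 members tested (rows, grouped by role). Red is higher and blue lower in the line, and a black dot marks an adjusted p under 0.05; the dots fall on 9 members, 6 of them in each 2-factor line.

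A coarser description counts members whose 2 line libraries both lay below, or both above, all 5 controls. In the Nkx2.2 line 4 members lay below (all genes 6.69%) and 5 above (all genes 5.66%). In the Nkx6.1 line 11 lay below (all genes 9.7%) and 3 above (all genes 10.2%). In the Olig2 line 4 lay below (all genes 7.84%) and 5 above (all genes 7.88%). In Nkx6.1-P2A-Nkx2.2 cells 11 lay below (all genes 9.99%) and 10 above (all genes 10.9%), and in Nkx6.1-P2A-Olig2 cells 12 lay below (all genes 10.4%) and 6 above (all genes 12.4%). The members below all controls in the Nkx6.1 line included 3 of the 4 Id genes, 3 receptors and 2 Smads.

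Among the ligands, Bmp7 rose in 3 lines. It encodes a secreted BMP made by the roof plate and many epithelia, and on mm10 it lies on the minus strand of chromosome 2, 172868012 to 172940321 (ENSMUSG00000008999.7). Its level was 62.6 and 77.8 CPM in the Nkx2.2 line, 48.5 and 42.2 CPM in the Nkx6.1 line, and 33.3 and 39.2 CPM in the Olig2 line. It was 88.9 and 92.5 CPM in Nkx6.1-P2A-Nkx2.2 cells and 52.5 and 47.4 CPM in Nkx6.1-P2A-Olig2 cells, against 33.4, 36.8, 39.2, 37.4 and 32.6 CPM in the controls. Every library with an Nkx2.2 or Nkx6.1 transgene was thus above all 5 controls, the libraries with Nkx2.2 were highest, and the Olig2 line overlapped the controls.

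Bmp7 rose 2.53-fold in Nkx6.1-P2A-Nkx2.2 cells (log2 1.34 ± 0.10, SE; edgeR adjusted p = 1.57e-05) and 1.95-fold in the Nkx2.2 line (log2 0.97 ± 0.10, SE; edgeR adjusted p = 0.000634). Both calls held in all 14 alternative fits, including each library left out, with a highest adjusted p of 0.000862 and 0.0266. It rose 1.39-fold in Nkx6.1-P2A-Olig2 cells (log2 0.48 ± 0.11, SE; edgeR adjusted p = 0.0308). That call held in 7 of 14 alternatives: it ended without line replicate 1 (log2 0.40, edgeR adjusted p = 0.239) or 2 (log2 0.55, edgeR adjusted p = 0.139), and without control replicates 1, 2 or 4 (log2 0.45 to 0.49, edgeR adjusted p between 0.0592 and 0.0648). It also ended with the label series as a term (log2 0.51, edgeR adjusted p = 0.0896) and with the replicate number as a block (log2 0.51, edgeR adjusted p = 0.0754). The Nkx6.1 line, at log2 0.34 ± 0.11 (SE), did not pass (edgeR adjusted p = 0.147), nor did the Olig2 line, at 0.02 ± 0.11 (SE; edgeR adjusted p = 0.977).

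Each library's description opens with a number, and where a control has the same number the 2 libraries can be set side by side. For Bmp7 these log2 ratios of line over control were 0.77 for the Nkx2.2 line (number 212), 0.54 for the Nkx6.1 line (210) and -0.24 for the Olig2 line (214). They were 1.25 and 1.504 for the Nkx6.1-P2A-Nkx2.2 line (232 and 234) and 0.49 and 0.54 for the Nkx6.1-P2A-Olig2 line (232 and 234). Within these numbers, too, the lines with Nkx2.2 were highest and the Olig2 line lowest.

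**Figure D3:**
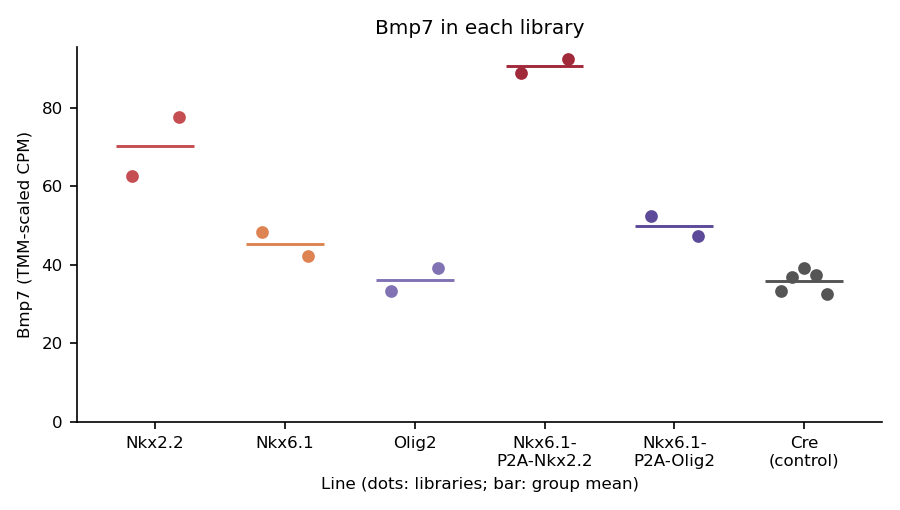
Bmp7 level in TMM-scaled CPM (y axis) in each library (dots) of the 5 transgenic lines and the Cre control (x axis), with group means as bars. The Nkx6.1-P2A-Nkx2.2 libraries sit at 88.9 and 92.5 CPM and the controls between 32.6 and 39.2 CPM.

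Bmp2, another BMP ligand (chromosome 2, 133552159 to 133562885, plus strand), went the other way. It had 5.21 and 4.92 CPM in Nkx6.1-P2A-Nkx2.2 cells and 6.11 and 6.76 CPM in Nkx6.1-P2A-Olig2 cells. It had 10.8 and 10.1 CPM in the Nkx2.2 line, 6.43 and 8.18 CPM in the Nkx6.1 line and 11.6 and 11.2 CPM in the Olig2 line, against 10.6, 11.1, 8.99, 12.0 and 14.9 CPM in the controls. The 3 lines with Nkx6.1 were below every control, and the Nkx2.2 and Olig2 lines overlapped them. Bmp2 fell in Nkx6.1-P2A-Nkx2.2 cells (log2 -1.19 ± 0.19, SE; edgeR adjusted p = 0.00374) and in Nkx6.1-P2A-Olig2 cells (log2 -0.84 ± 0.18, SE; edgeR adjusted p = 0.0287), while the Nkx6.1 line did not pass (log2 -0.66 ± 0.18, SE; edgeR adjusted p = 0.103). The calls ended when either library of the line was left out (log2 -1.23 and -1.14, edgeR adjusted p = 0.0578 and 0.106, and log2 -0.77 and -0.91, edgeR adjusted p = 0.179 and 0.182). In Nkx6.1-P2A-Olig2 cells the call also ended without control replicate 2 or 4 (log2 -0.86 and -0.83, edgeR adjusted p = 0.0508 and 0.0617). DESeq2 called Bmp2 in the Nkx6.1 line too, among 486 genes in all, where edgeR called 103.

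The other 8 ligands tested were not called in any line by edgeR. Gdf11, a TGF-beta family ligand that limits neuron production in several tissues, lay between 20.9 and 29.4 CPM in the controls, and its log2 fold changes ran from 0.08 to 0.30. Bmp6 lay between 5.04 and 9.17 CPM in the controls, with log2 fold changes of -0.28 to 0.10. Tgfb3, chosen after its values were seen, had 4.33 and 5.17 CPM in Nkx6.1-P2A-Nkx2.2 cells and 4.96 and 5.83 CPM in Nkx6.1-P2A-Olig2 cells, against 1.83 to 3.74 CPM in the controls. Both 2-factor lines were above all controls, and neither passed (log2 0.81 ± 0.27 and 0.98 ± 0.27, SE; edgeR adjusted p = 0.160 and 0.0706). In Nkx6.1-P2A-Olig2 cells Tgfb3 was called by DESeq2, with the replicate block, with the label number as a block and without control replicate 3, and the label number block also called Bmp1, a secreted protease, there. Gdf7, a roof plate ligand, and Inhba, an activin subunit, held at most 0.473 and 0.481 CPM in any library, and Bmp8b at most 1.08 CPM.

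Among the secreted antagonists and modulators, Fst fell in the 3 lines with Nkx6.1. Fst encodes follistatin, which binds activins and some BMPs (chromosome 13, 114452290 to 114458951, minus strand; a predicted gene on the opposite strand shares exon bases). It had 6.66 and 8.70 CPM in Nkx6.1-P2A-Nkx2.2 cells, 7.92 and 8.57 CPM in Nkx6.1-P2A-Olig2 cells and 12.9 and 12.6 CPM in the Nkx6.1 line. It had 20.9 and 13.7 CPM in the Nkx2.2 line and 17.3 and 15.1 CPM in the Olig2 line, against 21.6, 22.4, 22.5, 19.03 and 23.9 CPM in the controls. The Olig2 line was also below all controls, and the Nkx2.2 line overlapped them. The log2 fold change was -1.50 ± 0.17 (SE; edgeR adjusted p = 0.000455) in Nkx6.1-P2A-Nkx2.2 cells and -1.41 ± 0.17 (SE; edgeR adjusted p = 0.000891) in Nkx6.1-P2A-Olig2 cells, and both calls held in all 14 alternatives. In the Nkx6.1 line it was -0.78 ± 0.16 (SE; edgeR adjusted p = 0.0486), and that call held in 5 of 14 alternatives. It ended without either library of the line (log2 -0.80 and -0.78, edgeR adjusted p = 0.446 and 0.106) and without control replicate 2, 3, 4 or 5 (log2 -0.83 to -0.75, edgeR adjusted p from 0.0533 to 0.113). It ended also with the label series as a term and with the replicate block (log2 -0.80 and -0.79, edgeR adjusted p = 0.0990 and 0.171). With the label number as a block it ended too (log2 -0.75), but there the Nkx6.1 line rests on 1 library.

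Chrd encodes chordin, which binds BMPs and keeps them from their receptors (chromosome 16, 20733127 to 20742384, plus strand; its exons share bases with Thpo on the opposite strand, and the strand setting of the counting is not given in the sources used here). Its promoter is shown because Chrd, with Bmp7, is 1 of the 2 members that rose in the Nkx2.2 line. The sequence is RefSeq's for GRCm38.p6, 250 bases before to 50 after the start of transcription, at chr16:20732877-20733176 on the plus strand. Capitals mark matches on either strand to TNAAGTG (the core of Nkx2.2 sites), TTAATTA (a core of Nkx6.1 sites), CAGCTG (an E-box, the kind of site that Olig2 and other bHLH factors bind), GGCGCC (a GC box of BMP-responsive genes) and CAGAC (the SMAD box).
Chrd: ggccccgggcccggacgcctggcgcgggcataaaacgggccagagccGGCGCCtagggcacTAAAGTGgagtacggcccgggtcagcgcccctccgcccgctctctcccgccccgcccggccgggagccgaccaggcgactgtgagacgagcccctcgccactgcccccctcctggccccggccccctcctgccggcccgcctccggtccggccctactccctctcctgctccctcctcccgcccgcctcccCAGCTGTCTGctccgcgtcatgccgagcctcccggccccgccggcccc
It holds 1 match to each of these motifs except TTAATTA, and the E-box and the reversed SMAD box share a base. Of 32851 promoter windows of the same length, the share that holds TNAAGTG is 11.5%, that for TTAATTA is 3.07%, that for the E-box is 16.3%, that for the GC box is 11.9% and that for the SMAD box is 49.6%. A match describes the letters and is no evidence of binding.

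Chrd had 9.38 and 12.2 CPM in the Nkx2.2 line, 7.33 and 5.81 CPM in the Nkx6.1 line and 7.81 and 9.19 CPM in the Olig2 line. It had 9.46 and 7.69 CPM in Nkx6.1-P2A-Nkx2.2 cells and 5.26 and 6.29 CPM in Nkx6.1-P2A-Olig2 cells, against 5.37, 5.12, 6.29, 4.17 and 3.002 CPM in the controls. The Nkx6.1-P2A-Nkx2.2, Nkx2.2 and Olig2 lines were above all controls. Chrd rose in the Nkx2.2 line (log2 1.17 ± 0.23, SE; edgeR adjusted p = 0.0308), and Olig2 cells and Nkx6.1-P2A-Nkx2.2 cells, each at log2 0.83 ± 0.23 (SE), did not pass (edgeR adjusted p = 0.113 and 0.0827). DESeq2 called Chrd in both of these, and in Nkx6.1-P2A-Nkx2.2 cells it was also called with the series term, with the label number block and without control replicate 3. The Nkx2.2 call held in 7 of 14 alternatives. It ended without replicate 1 or 2 of the line (log2 1.37 and 0.97, edgeR adjusted p = 0.0732 and 0.472), without control replicate 2 or 4 (log2 1.21 and 1.13, edgeR adjusted p = 0.0734 and 0.0866), and with the series term, the replicate block or the label number block (log2 0.95, 1.04 and 0.82, edgeR adjusted p = 0.0755, 0.0797 and 0.100).

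The other 5 modulators tested were not called by edgeR. With the label number as a block, Bmper was called in both 2-factor lines, Nog in Nkx6.1-P2A-Nkx2.2 cells and Twsg1 in Nkx6.1-P2A-Olig2 cells. Twsg1, which binds both BMPs and chordin, lay between 203 and 248 CPM in the controls, with log2 fold changes of -0.20 to 0.19. Fstl1 lay between 167 and 182 CPM, with log2 fold changes of -0.11 to 0.21. Grem1, a BMP antagonist below the filter, held at most 0.450 CPM in any library.

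Of the latent TGF-beta binding proteins, which tie TGF-beta to the extracellular matrix, Ltbp2 rose in the Olig2 line. Ltbp2 is a microfibril protein of this family (chromosome 12, 84783212 to 84876532, minus strand; its exons share bases with D030025P21Rik on the opposite strand). It had 2.997 and 4.15 CPM in the Olig2 line, 0.662 and 0.747 CPM in the Nkx2.2 line and 1.07 and 1.49 CPM in the Nkx6.1 line. It had 1.44 and 0.378 CPM in Nkx6.1-P2A-Nkx2.2 cells and 1.09 and 0.937 CPM in Nkx6.1-P2A-Olig2 cells, against 0.730, 0.784, 0.468, 0.394 and 0.445 CPM in the controls. Its log2 fold change in the Olig2 line was 2.64 ± 0.36 (SE; edgeR adjusted p = 0.00109), a 6.25-fold difference, and the call held in all 14 alternatives. The Nkx6.1 and Nkx6.1-P2A-Olig2 lines were above all controls too and did not pass (log2 1.16 ± 0.42 and 0.83 ± 0.43, SE; edgeR adjusted p = 0.196 and 0.356). Ltbp1 and Ltbp3 were not called by edgeR, with log2 fold changes of -0.51 to 0.02 and 0.33 to 0.52. DESeq2 called Ltbp1 in Nkx6.1-P2A-Nkx2.2 cells, as did edgeR without control replicate 5.

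None of the 9 receptors was called in any line by edgeR. DESeq2 called Acvr2a in Nkx6.1-P2A-Olig2 cells and in the Nkx6.1 line, and with the label number as a block edgeR called Tgfbr3 in both 2-factor lines and Acvr2b and Bmpr1b in the Olig2 line. That block called 2021 genes in all in the Olig2 line, against 260 without it. The median log2 fold change of the receptors ran from -0.31 in Nkx6.1-P2A-Olig2 cells to -0.02 in the Nkx2.2 line. Bmpr1a lay between 242 and 274 CPM in the controls and its log2 fold changes ran from -0.20 to -0.02. Tgfbr1 lay between 190.0 and 245 CPM, with log2 fold changes of -0.22 to 0.20. Acvr2a, a type II receptor for activins and BMPs chosen after its values were seen, was lower in 4 lines than in every control. It had 48.9 and 50.9 CPM in the Nkx2.2 line, 45.8 and 49.8 CPM in the Nkx6.1 line, 51.6 and 47.3 CPM in Nkx6.1-P2A-Nkx2.2 cells and 52.4 and 42.5 CPM in Nkx6.1-P2A-Olig2 cells, against 53.0 to 66.6 CPM in the controls. Its log2 fold changes there were -0.28, -0.34, -0.29 and -0.35 (SE 0.10 each), with edgeR adjusted p between 0.0798 and 0.339. The Olig2 line, at 54.0 and 57.4 CPM, overlapped the controls.

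The Id genes encode helix-loop-helix proteins that lack a DNA-binding region and hold bHLH factors inactive. They are counted among the best known targets of BMP signalling. The promoters of Id2, Id3 and Smad9 are shown because Id2 and Smad9 fell in both 2-factor lines and Id3 in Nkx6.1-P2A-Olig2 cells. They are RefSeq's windows of 250 bases before to 50 after the start on GRCm38.p6, at chr12:25096043-25096342 on the minus strand for Id2, chr4:136143572-136143871 on the plus strand for Id3 and chr3:54755332-54755631 on the plus strand for Smad9, with the same motifs in capitals.
Id2: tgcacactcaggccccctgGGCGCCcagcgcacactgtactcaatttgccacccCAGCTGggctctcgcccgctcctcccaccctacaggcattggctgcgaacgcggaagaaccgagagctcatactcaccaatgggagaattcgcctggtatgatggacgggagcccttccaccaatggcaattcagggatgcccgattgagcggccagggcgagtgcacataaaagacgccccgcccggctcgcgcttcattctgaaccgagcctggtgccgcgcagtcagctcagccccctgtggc
Id3: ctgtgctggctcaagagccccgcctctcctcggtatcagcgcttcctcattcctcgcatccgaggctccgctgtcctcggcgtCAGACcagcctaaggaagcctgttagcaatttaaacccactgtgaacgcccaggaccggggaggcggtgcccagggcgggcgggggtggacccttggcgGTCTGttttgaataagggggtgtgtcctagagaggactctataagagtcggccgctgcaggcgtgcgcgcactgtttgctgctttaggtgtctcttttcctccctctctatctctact
Smad9: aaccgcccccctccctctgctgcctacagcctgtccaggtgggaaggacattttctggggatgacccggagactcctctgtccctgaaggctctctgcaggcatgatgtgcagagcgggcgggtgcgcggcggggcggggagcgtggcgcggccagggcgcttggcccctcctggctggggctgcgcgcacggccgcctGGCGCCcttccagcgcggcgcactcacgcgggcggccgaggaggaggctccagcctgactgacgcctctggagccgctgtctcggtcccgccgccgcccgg
Id2 holds 1 E-box and 1 GC box, Id3 holds 2 SMAD boxes and Smad9 holds 1 GC box. None of these 3 windows holds TNAAGTG or TTAATTA, which says only that those letters are not in them.

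Id1 (chromosome 2, 152736251 to 152737410, plus strand) had 71.0 and 52.5 CPM in Nkx6.1-P2A-Nkx2.2 cells and 69.8 and 72.7 CPM in Nkx6.1-P2A-Olig2 cells. It had 96.3 and 66.7 CPM in the Nkx2.2 line, 93.5 and 69.8 CPM in the Nkx6.1 line and 135.6 and 114.9 CPM in the Olig2 line, against 108.7, 109.4, 92.9, 104.7 and 109.6 CPM in the controls. Both 2-factor lines were below, and the Olig2 line above, every control. Id1 fell in Nkx6.1-P2A-Nkx2.2 cells (log2 -0.77 ± 0.16, SE; edgeR adjusted p = 0.0207), a call that ended without replicate 2 of the line (log2 -0.56, edgeR adjusted p = 0.406) and with the series term (log2 -0.80, edgeR adjusted p = 0.0663). The Nkx6.1-P2A-Olig2 line did not pass (log2 -0.56 ± 0.16, SE; edgeR adjusted p = 0.0777).

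Id2 (chromosome 12, 25093799 to 25097140, minus strand) had 71.1 and 61.0 CPM in Nkx6.1-P2A-Nkx2.2 cells and 83.7 and 69.2 CPM in Nkx6.1-P2A-Olig2 cells. It had 91.3 and 63.6 CPM in the Nkx2.2 line, 86.1 and 101.1 CPM in the Nkx6.1 line and 134.7 and 71.6 CPM in the Olig2 line, against 142.8, 140.8, 123.4, 128.2 and 146.9 CPM in the controls. All lines but Olig2 were below every control. Id2 fell in Nkx6.1-P2A-Nkx2.2 cells (log2 -1.05 ± 0.21, SE; edgeR adjusted p = 0.0164) and in Nkx6.1-P2A-Olig2 cells (log2 -0.83 ± 0.20, SE; edgeR adjusted p = 0.0470). The Nkx6.1-P2A-Nkx2.2 call ended without either library of the line (log2 -1.16 and -0.94, edgeR adjusted p = 0.108 and 0.302) and with the series term (log2 -1.06, edgeR adjusted p = 0.0580). In Nkx6.1-P2A-Olig2 cells it ended when any single library was left out (log2 -0.98 to -0.70, edgeR adjusted p from 0.0555 to 0.370). It ended there too with the series term and the replicate block (log2 -0.85 and -0.90, edgeR adjusted p = 0.139 and 0.0524).

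Id3 (chromosome 4, 136143497 to 136145755, plus strand) had 119.1 and 79.5 CPM in Nkx6.1-P2A-Olig2 cells and 147.2 and 146.7 CPM in Nkx6.1-P2A-Nkx2.2 cells. It had 184.6 and 194.2 CPM in the Nkx2.2 line, 163.3 and 117.8 CPM in the Nkx6.1 line and 176.8 and 173.9 CPM in the Olig2 line, against 213.5, 227.6, 224.0, 235.7 and 193.2 CPM in the controls. All lines but Nkx2.2 were below every control. Id3 fell in Nkx6.1-P2A-Olig2 cells (log2 -1.14 ± 0.15, SE; edgeR adjusted p = 0.00136), and the call held in all 14 alternatives. Neither Nkx6.1-P2A-Nkx2.2 cells nor the Nkx6.1 line passed (log2 -0.57 ± 0.14 and -0.64 ± 0.14, SE; edgeR adjusted p = 0.0525 and 0.0639).

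Id4, like Id1, lay above every control in the Olig2 line. It had 6.00 and 8.05 CPM there, above the 2.77 to 4.50 CPM of the controls (log2 0.95 ± 0.25, SE; edgeR adjusted p = 0.0806), and 2.42 and 2.03 CPM in the Nkx6.1 line, below them (log2 -0.70 ± 0.28, SE; edgeR adjusted p = 0.241). Over the 4 Id genes, the median log2 fold change was -0.29 in the Nkx2.2 line, -0.59 in the Nkx6.1 line, -0.03 in the Olig2 line, -0.67 in Nkx6.1-P2A-Nkx2.2 cells and -0.70 in Nkx6.1-P2A-Olig2 cells. By edgeR 2 of the 4 fell in each 2-factor line and 0 in each single-factor line. DESeq2 called Id1, Id2 and Id3 in both 2-factor lines, Id2 in the Nkx2.2 line, Id3 in the Nkx6.1 line and Id4 in the Olig2 line. With no filter edgeR called Id3 in the Nkx6.1 line and in Nkx6.1-P2A-Nkx2.2 cells. The label number block called Id1 in the Olig2 line and Id1, Id2 and Id3 in both 2-factor lines. Of all tested genes that block called 2021, 1109 and 1269 in these 3 lines, in place of 260, 399 and 397.

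Cell type markers also differed in these lines. The 5 pluripotency markers, none of them called, summed to 89.6 to 155 CPM in Nkx6.1-P2A-Nkx2.2 cells and 85.8 to 118 CPM in Nkx6.1-P2A-Olig2 cells, against 163 to 341 CPM in the controls. The 6 roof plate and dorsal midline markers summed to 12.3 to 17.6 CPM (1 fell) and 11.2 to 12.4 CPM (2 fell) in these lines, against 22.7 to 32.4 CPM in the controls. The pluripotency sum of each single-factor line overlapped that of the controls. The roof plate sum was 27.6 to 33.7 CPM in the Nkx2.2 line, 17.7 to 18.7 CPM in the Nkx6.1 line and 14.8 to 23.1 CPM in the Olig2 line. Of the 5 endoderm markers Sox17 alone fell, in the 3 lines with Nkx6.1: it averaged 45.1 CPM in Nkx6.1-P2A-Nkx2.2 cells, 39.9 CPM in Nkx6.1-P2A-Olig2 cells and 45.2 CPM in the Nkx6.1 line, against 70.3 CPM in the controls. The endoderm sums of these lines, 208 to 263, 167 to 295 and 247 to 284 CPM, overlapped the 237 to 575 CPM of the controls. The neural crest marker Tfap2a fell in Nkx6.1-P2A-Olig2 cells, averaging 0.862 CPM there and 2.84 CPM in the controls. Of the 5 neural progenitor markers, Pax6 fell in all 5 lines and Sox2 in the Nkx6.1 line. Pax6 averaged from 9.27 CPM in Nkx6.1-P2A-Nkx2.2 cells to 45.7 CPM in the Olig2 line, against 99.8 CPM in the controls. Sox2 averaged 112.6 CPM in the Nkx6.1 line and 173.9 CPM in the controls. The part of these markers in the results on Id1, Id2, Id3, Smad9, Bmp2 and Fst was not tested.

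Smad9, a receptor-regulated Smad of the BMP branch (chromosome 3, 54755582 to 54801257, plus strand), had the most negative log2 fold change against the control of the 40 members tested. It had 0.722 and 1.39 CPM in Nkx6.1-P2A-Nkx2.2 cells and 1.57 and 1.47 CPM in Nkx6.1-P2A-Olig2 cells. It had 1.99 and 1.68 CPM in the Nkx2.2 line, 2.14 and 3.18 CPM in the Nkx6.1 line and 5.02 and 3.12 CPM in the Olig2 line, against 4.28, 3.55, 3.95, 3.72 and 5.89 CPM in the controls. All lines but Olig2 were below every control. Smad9 fell in Nkx6.1-P2A-Nkx2.2 cells (log2 -1.98 ± 0.34, SE; edgeR adjusted p = 0.00549) and in Nkx6.1-P2A-Olig2 cells (log2 -1.48 ± 0.32, SE; edgeR adjusted p = 0.0248). The Nkx2.2 line did not pass (log2 -1.22 ± 0.30, SE; edgeR adjusted p = 0.112). The Nkx6.1-P2A-Nkx2.2 call ended without replicate 1 of the line (log2 -1.62, edgeR adjusted p = 0.113). The Nkx6.1-P2A-Olig2 call ended without either library of that line (log2 -1.54 and -1.44, edgeR adjusted p = 0.135 and 0.237) and with the replicate block (log2 -1.36, edgeR adjusted p = 0.0813).

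The other Smads were not called by edgeR. Smad3, of the TGF-beta and activin branch, had 140.1 and 178.6 CPM in Nkx6.1-P2A-Nkx2.2 cells and 130.4 and 168.7 CPM in Nkx6.1-P2A-Olig2 cells, against 91.3 to 117.4 CPM in the controls. Both lines were above all controls without passing (log2 0.61 ± 0.17 and 0.51 ± 0.17, SE; edgeR adjusted p = 0.0839 and 0.139). Smad3 was called in Nkx6.1-P2A-Nkx2.2 cells by DESeq2 and with the replicate block, and in both lines with the label number block. That block also called Smad1 in Nkx6.1-P2A-Olig2 cells and Smad5 in the Olig2 line. Smad5, like Smad9 of the BMP branch, had log2 fold changes of -0.20 to 0.14. Smurf1 and Smurf2, ubiquitin ligases that mark Smads and receptors for breakdown, had log2 fold changes of -0.10 to 0.07 and -0.15 to 0.15.

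**Figure D4:**
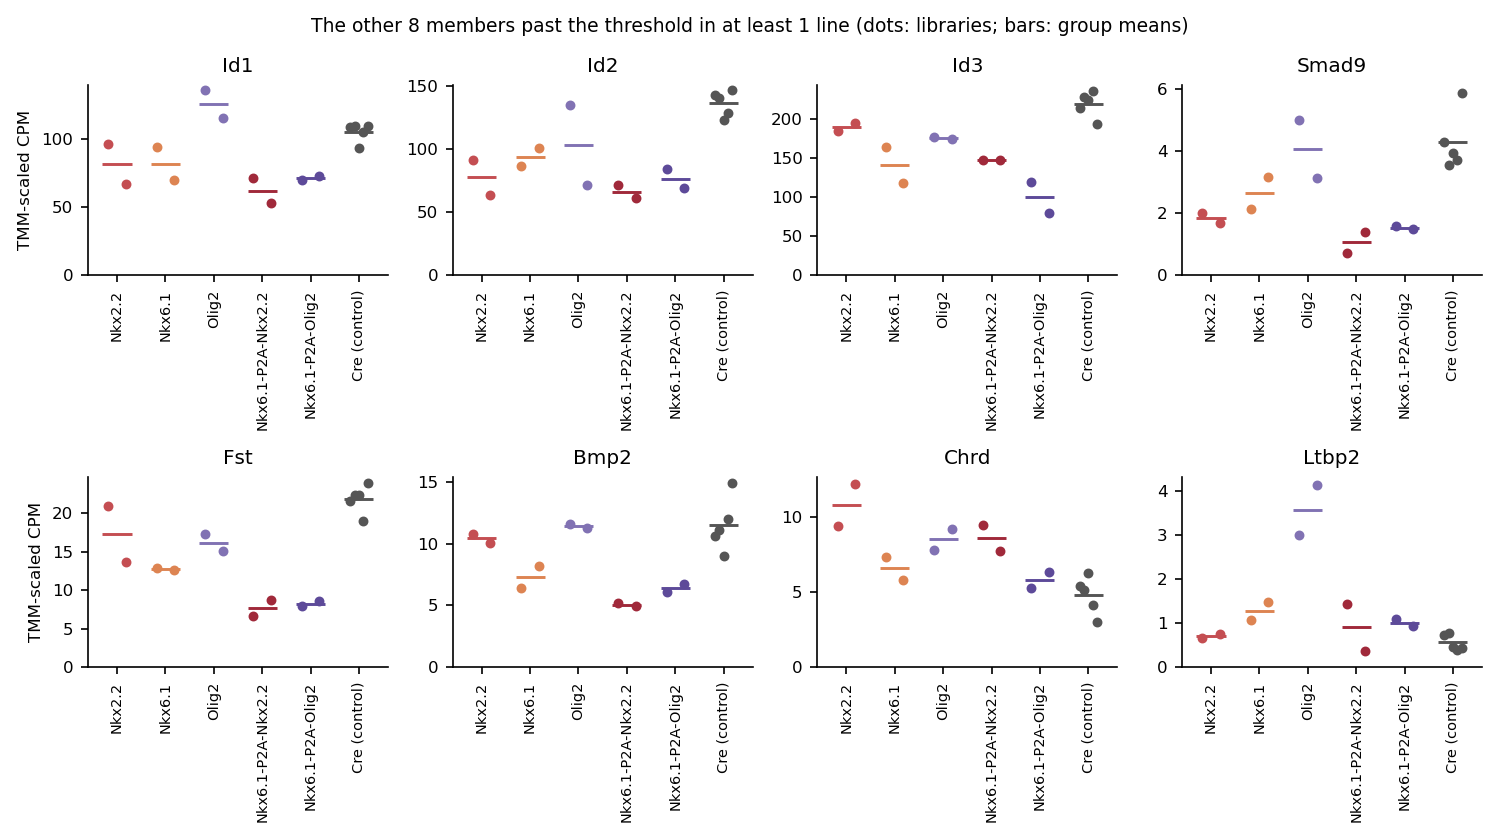
TMM-scaled CPM (y axes, each from 0) of the other 8 called members in each library (dots) of the 5 lines and the Cre control (x axes), with group means as bars. Fst sits at 6.66 to 8.70 CPM in the 2-factor lines and 19.03 to 23.9 CPM in the controls, and Ltbp2 is highest in the Olig2 line.

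Whether the lines differed from each other was tested directly. Nkx2.2 against Nkx6.1 called 1 member (all genes 0.579%): Bmp7 was higher in the Nkx2.2 line (log2 0.63 ± 0.13, SE; edgeR adjusted p = 0.0482). Nkx2.2 against Olig2 called 2 (all genes 1.84%): Bmp7 was higher in the Nkx2.2 line (log2 0.95 ± 0.13, SE; edgeR adjusted p = 0.00160), in all 10 alternatives, and Ltbp2 was lower (log2 -2.34 ± 0.47, SE; edgeR adjusted p = 0.0208). Nkx6.1 against Olig2 called 1 (all genes 1.88%): Id4 was lower in the Nkx6.1 line (log2 -1.65 ± 0.32, SE; edgeR adjusted p = 0.0178). Without the genes of chromosomes 18 and Y, Nkx2.2 against Olig2 called 62 genes in place of 257, with Bmp7 but not Ltbp2 among them. Nkx6.1 against Olig2 then called 44 in place of 263, and Id4 was not among them. Nkx2.2 against Nkx6.1 then called 67 in place of 81, and Bmp7 was not among them. Nkx6.1-P2A-Nkx2.2 against Nkx6.1-P2A-Olig2 called 1 (all genes 0.157%): Bmp7 was higher in Nkx6.1-P2A-Nkx2.2 cells (log2 0.86 ± 0.13, SE; edgeR adjusted p = 0.0161). The Id, Fst, Smad9 and Bmp2 values of the 2-factor lines were not called different from each other in this fit. With the label number as a block, Id3 and Twsg1 were called too, among 186 genes in all, against 22 without the block.

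Of these calls, Bmp7 in Nkx2.2 against Olig2 alone held with each library left out. Bmp7 in Nkx2.2 against Nkx6.1 ended without Nkx2.2 replicate 2 or Nkx6.1 replicate 1 or 2 (log2 0.47, 0.75 and 0.55, edgeR adjusted p = 0.347, 0.250 and 0.148), and was at log2 0.23 with the label number block (edgeR adjusted p = 0.509). Between the 2-factor lines Bmp7 ended without any of the 4 libraries (log2 0.79 to 0.95, edgeR adjusted p from 0.119 to 0.224). Ltbp2 ended without Nkx2.2 replicate 1 or 2 or Olig2 replicate 2 (log2 -2.22, -2.42 and -2.09, edgeR adjusted p = 0.198, 0.139 and 0.164), and Id4 without Nkx6.1 replicate 1 or 2 or Olig2 replicate 2 (log2 -1.79, -1.53 and -1.44, edgeR adjusted p = 0.142, 0.103 and 0.182). With the label number block Id4 was at log2 -0.88. Number 211 is that of Nkx6.1 replicate 2 alone, so with this block the Nkx6.1 line rests on replicate 1. This holds for Bmp7 as for Id4.

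The label numbers fall into a 21 and a 23 series, and the controls alone have libraries in both. Fits that set a 2-factor against a single-factor line therefore had a series term, and their fold changes need not equal the ratio of the CPM means. Nkx6.1-P2A-Nkx2.2 called 0 members against Nkx2.2 (all genes 0.0930%) and 0 against Nkx6.1 (all genes 0.0286%). At an unadjusted p under 0.05 there were 4 against Nkx2.2 (all genes 5.94%) and 7 against Nkx6.1 (all genes 8.32%). DESeq2 called 2 against Nkx2.2, Bmp2 and Fst (all genes 0.387%), and 1 against Nkx6.1, Bmp7 (all genes 0.317%). Bmp7 was at log2 0.43 ± 0.18 against Nkx2.2 (SE; edgeR adjusted p = 0.822) and 1.06 ± 0.18 against Nkx6.1 (SE; edgeR adjusted p = 0.103). Nkx6.1-P2A-Olig2 called 1 member against Olig2 (all genes 0.579%): Bmp2 was lower in Nkx6.1-P2A-Olig2 cells (log2 -1.22 ± 0.24, SE; edgeR adjusted p = 0.0432), a call that ended without any of the 4 libraries (log2 -1.29 to -1.15, edgeR adjusted p from 0.0568 to 0.200). Without the genes of chromosomes 18 and Y this comparison called 27 genes in place of 81, and Bmp2 was not among them. Against Nkx6.1 the Nkx6.1-P2A-Olig2 line called 0 (all genes 0.0787%), with 6 at an unadjusted p under 0.05 (all genes 10.4%) and 0 by DESeq2 (all genes 0.451%).

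A further 70 pathway genes outside the 44 were looked at in the same fits, and 50 passed the filter. Of these 50, in the Nkx2.2 line 1 fell and 1 rose (all genes 0.451% and 0.272%). In the Nkx6.1 line 1 fell and 0 rose (all genes 0.565% and 0.172%). In the Olig2 line 0 fell and 0 rose (all genes 0.443% and 1.42%). In Nkx6.1-P2A-Nkx2.2 cells 5 fell and 3 rose (all genes 1.76% and 1.09%), and in Nkx6.1-P2A-Olig2 cells 3 fell and 2 rose (all genes 1.82% and 1.02%). Sost, which encodes sclerostin and was listed with the antagonists and extracellular modulators, rose in the 3 lines with a call on it. It averaged 8.40 ± 0.02 CPM in Nkx6.1-P2A-Nkx2.2 cells, 5.71 ± 0.73 CPM in Nkx6.1-P2A-Olig2 cells and 4.54 ± 0.01 CPM in the Nkx2.2 line (SD, n = 2 each). In the controls it was at 1.35 ± 0.41 CPM (SD, n = 5). Its log2 fold changes were 2.63 ± 0.26, 2.07 ± 0.26 and 1.74 ± 0.27 (SE; edgeR adjusted p = 9.88e-05, 0.00111 and 0.00796). Msx2, a homeodomain target of BMP signalling, fell in Nkx6.1-P2A-Nkx2.2 cells (log2 -1.18 ± 0.25, SE; edgeR adjusted p = 0.0227) and in Nkx6.1-P2A-Olig2 cells (log2 -1.15 ± 0.25, SE; edgeR adjusted p = 0.0268). It is also 1 of the roof plate markers. The targets did not all fall: of 9 further target genes tested, Msx2 among them, 2 fell and 1 rose in Nkx6.1-P2A-Nkx2.2 cells. The riser was Atoh8, chosen after its values were seen, at 22.1 ± 2.10 CPM there and 9.895 ± 3.11 CPM in the controls (SD, n = 2 and 5). In Nkx6.1-P2A-Olig2 cells 1 of the 9 fell and 0 rose.

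Chrdl1, a chordin-like antagonist, fell (log2 -1.84 ± 0.40, SE; edgeR adjusted p = 0.0264) and Nbl1, a secreted BMP antagonist, rose (log2 1.39 ± 0.29, SE; edgeR adjusted p = 0.0227) in Nkx6.1-P2A-Nkx2.2 cells. The BMP co-receptor Rgmb fell in both 2-factor lines (log2 -0.66 ± 0.12 with Nkx2.2 and -0.79 ± 0.12 with Olig2 as the second factor, SE; edgeR adjusted p = 0.00735 and 0.00271). In Nkx6.1-P2A-Olig2 cells Ski, a repressor of Smad-driven transcription, rose (log2 0.45 ± 0.10, SE; edgeR adjusted p = 0.0352). Ctgf, a TGF-beta target encoding a matrix-associated protein, fell in Nkx6.1-P2A-Nkx2.2 cells and in the Nkx2.2 and Nkx6.1 lines (log2 -0.58 ± 0.11, -0.67 ± 0.11 and -0.58 ± 0.11, SE; edgeR adjusted p = 0.0143, 0.0160 and 0.0350). The genes listed as antagonists or modulators moved both ways: Fst and Chrdl1 fell, while Chrd, Sost and Nbl1 rose, each in the lines named.

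The authors' deposited table of ratios lists 224 genes, of which 5 are members: Bmp2, Fst, Id2, Id3 and Smad9. In the authors' deposited table the Smad9 ratio of each transgenic library over the control mean ran from 0.113 to 0.905, the Fst ratio from 0.203 to 0.928 and the Bmp2 ratio from 0.304 to 0.911. The Id2 ratio ran from 0.348 to 0.759 and the Id3 ratio from 0.291 to 0.819 in the authors' deposited table. These ratios carry no correction for library totals, and every control total was above those of the lines, so a gene at an equal share of the reads has a ratio under 1 there. Bmp7, Chrd and Ltbp2, which rose, are not among its 224 genes.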

How the data were processed

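Column-purified RNA was made into TruSeq libraries, per the labels' protocols. STAR, DESeq2 and mm10 appear in the submitters' processing notes without versions or roles, and the counting tool, annotation and strand setting are not given in the sources used here. The deposited table is named for RPKM, but its values are counts: all are whole numbers and library totals differ. Its 27 rows with dates in place of symbols (0.228% to 0.253% of each library) stayed in the totals and were not tested. The authors' second deposited table is a ratio: all 2240 cells equal, within 1e-06, the count over the mean of the 5 control counts.

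Counts were scaled by TMM and tested with edgeR 4.0.16 quasi-likelihood (R 4.3.3) in 1 model of 6 groups, checked on simulated data. P-values were adjusted by Benjamini-Hochberg over all 13982 genes. Alternatives were median-of-ratios scaling, no filter, a label series term, and replicate number and label number blocks. Others were no chromosome 18 or Y genes, DESeq2 1.42.0, and each library left out. Label number 211 belongs to Nkx6.1 replicate 2 alone, so with the label number block the Nkx6.1 line rests on replicate 1. Every other number is shared by few libraries, so that block leaves little from which to estimate the spread. Positions and exon lengths came from GENCODE M21 (GRCm38, as mm10): 21712 symbols matched directly, 1274 by synonym and 407 did not. Promoters are RefSeq's (GRCm38.p6). Of the members 36 had one, among them 5 of the 9 called, and Bmp7, Bmp2, Fst and Id1 had none. The Ltbp2 window is not printed: it holds 3 SMAD boxes and no match to the other motifs, the E-box included.

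The members, the lists and the tests were chosen with earlier results of these data known. Members called against the control are named with every library's value. Of the others, the 2 of each role with the highest control CPM and those below the filter are named, and, of the other pathway genes, at most 4 per line by largest fold change, each then given in every line that called it. A gene picked outside this rule is marked as such where it is named.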

Additional observations from a re-analysis of the deposited data

Results flagged for a closer look

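The 5 control libraries of each tested member were searched for a single library far from the rest, its gap to the nearest library exceeding 0.71 of the group's range. Of the 40 members, 5 were flagged, and chance flags about 1 group in 20. Control replicate 1 stood high for Inhbb, an activin subunit (1.83 CPM, with the nearest control at 1.17 CPM), and for Acvr1, a type I BMP receptor (24.8 CPM, nearest 22.6 CPM). Control replicate 5 stood high for the co-receptor Tgfbr3 (136.9 CPM, nearest 74.0 CPM). Control replicate 3 stood low for Id1 (92.9 CPM, nearest 104.7 CPM) and for the inhibitory Smad6 (18.5 CPM, nearest 21.9 CPM). Id1 alone of these was called in a line, and in Nkx6.1-P2A-Nkx2.2 cells it fell also without control replicate 3 (log2 -0.81, edgeR adjusted p = 0.0235).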

How the results depend on the processing

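Counts of called members against the control were 2 for Nkx2.2, 1 for Nkx6.1, 1 for Olig2, 6 for Nkx6.1-P2A-Nkx2.2 and 6 for Nkx6.1-P2A-Olig2. With the label series as a term the Nkx2.2 and Nkx6.1 counts became 1 and 0, and with the replicate number as a block also 1 and 0. With the series term 4 of the 6 calls were left in each 2-factor line, and Chrd was called in addition in Nkx6.1-P2A-Nkx2.2 cells. Of all tested genes the series term called 56, 56, 218, 202 and 187 in the same order, and the replicate block 85, 40, 228, 349 and 370. With the label number as a block all 5 became 1, 0, 5, 12 and 14. Of all tested genes that block called 269, 40, 2021, 1109 and 1269 in the same order, in place of 101, 103, 260, 399 and 397. DESeq2 gave 4, 4, 3, 10 and 9, and no filter gave 2 for Nkx6.1. Of all genes DESeq2 called 220, 486, 432, 650 and 714, and edgeR with no filter called 119 for Nkx6.1. Between lines, DESeq2 called 2 (Nkx2.2 against Nkx6.1), 4 (Nkx2.2 against Olig2), 2 (Nkx6.1 against Olig2), 2 (between the 2-factor lines), 2 (Nkx6.1-P2A-Nkx2.2 against Nkx2.2), 1 (against Nkx6.1) and 4 (Nkx6.1-P2A-Olig2 against Olig2). Of all genes it called 287, 384, 550, 79, 51, 40 and 371 in this order, in place of 81, 257, 263, 22, 13, 4 and 81 by edgeR. The label number block gave 0, 5, 3, 3 and 4 for the first 5 of these and 15 for the last, and the replicate block 2 for Nkx6.1 against Olig2, 2 for Nkx6.1-P2A-Nkx2.2 against Nkx2.2 and 3 for Nkx6.1-P2A-Olig2 against Olig2. Of all tested genes the label number block called 52, 877, 796, 186 and 257 for the first 5 and 2049 for the last. The replicate block called 607, 100 and 701 for its 3. Without chromosomes 18 and Y the first 3 became 0, 1 and 0, Nkx6.1-P2A-Nkx2.2 against Nkx2.2 became 1 and Nkx6.1-P2A-Olig2 against Olig2 became 0. Over all tested genes these comparisons then called 67, 62, 44, 14 and 27, in place of 81, 257, 263, 13 and 81. There the log2 values barely moved and the adjusted p of the lost calls lay between 0.0536 and 0.0647. Without the series term Nkx6.1-P2A-Nkx2.2 gave 1 against Nkx2.2 and 1 against Nkx6.1, and Nkx6.1-P2A-Olig2 gave 5 against Olig2. Of all tested genes 30, 30 and 452 were then called, in place of 13, 4 and 81. Median-of-ratios scaling gave 1 for Nkx6.1-P2A-Nkx2.2 against Nkx2.2 and no filter 1 for it against Nkx6.1. Of all tested genes 14 and 11 were called there, in place of 13 and 4. The cause of these moves was not tested.

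Leaving out each library in turn gave 1 to 2, 0 to 1, 1 to 2, 3 to 8 and 2 to 6 calls against the control in the order above. It gave 0 to 1 for Nkx2.2 against Nkx6.1, 1 to 2 for Nkx2.2 against Olig2, 0 to 1 for Nkx6.1 against Olig2 and 0 to 0 for the other 5 line comparisons. Without 1 control, 55 to 151 of all tested genes were called for Nkx2.2, 40 to 283 for Nkx6.1 and 182 to 444 for Olig2. For Nkx6.1-P2A-Nkx2.2 they were 246 to 531 and for Nkx6.1-P2A-Olig2 233 to 550. Over all libraries left out, the Bmp7 log2 fold change ran from 0.80 to 1.14, 0.23 to 0.43, -0.10 to 0.13, 1.31 to 1.38 and 0.40 to 0.55 in this order of lines. Bmp7 in the Olig2 line, near 0 throughout, changed sign to -0.008 with the series term and -0.23 with the label number block, and to -0.10, -0.01 and -0.02 without Olig2 replicate 2, control replicate 1 or control replicate 5. Bmp7 in the Nkx6.1-P2A-Olig2 line lost its call with the series term (log2 0.51, edgeR adjusted p = 0.0896) and the replicate block (log2 0.51, edgeR adjusted p = 0.0754). Libraries that share a replicate number deviated together with correlations of -0.33 to 0.67 over genes, and those that share a label number with -0.48 to 0.67. Among the 2-factor lines and the controls with numbers 232 and 234 all 6 correlations were above 0 (0.06 to 0.59). These are not 6 separate signs, because the 2 libraries of a line deviate from their mean by opposite amounts. The 2 correlations between the 2-factor lines are thus the same value (0.522). This is at most a hint from the data: the labels do not say what the numbers mark, so they were not taken to pair the libraries. With a line library left out, the lone library is assumed to vary like the other groups. The number of all tested genes called moved too with each library left out. With 2 libraries per line, and Smad9, Ltbp2 and Id4 at a few CPM, a change that missed the threshold is not shown to be absent.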
